A study of Mus musculus with 22 samples.

Results

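The matrix metalloproteinases, the ADAMTS proteases and the proteins that hold them in check were followed across the distal colon of healthy and colitic mice. Members were taken by symbol: every gene named Mmp, Timp, Adamts or Adamtsl with a number. The pattern matched 52 of the 46078 genes in the table, comprising 24 matrix metalloproteinases (Mmp), 4 tissue inhibitors of metalloproteinases (Timp), 19 ADAMTS proteases and 5 ADAMTS-like proteins, which lack a catalytic domain. The symbol Mmp27 was carried by 2 gene identifiers, so the 52 genes have 51 symbols. In all, 44 members had enough reads to be tested in at least 1 comparison of groups.

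RNA was sequenced from 22 mice in 3 groups. The C57BL/6 group held 8 wild-type mice aged 14 weeks (4 males and 4 females), and the Winnie group 7 mice aged 14 weeks (3 males and 4 females). Winnie mice carry a missense mutation in Muc2, which encodes the main secreted mucin of the colon, and develop colitis without any treatment. The Winnie-Prolapse group held 7 Winnie mice with rectal prolapse aged 18 weeks (4 males and 3 females), so that prolapse and age cannot be told apart in this group. In whole tissue, fewer cells of a type and less RNA per cell cannot be told apart either.

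Matrix metalloproteinases are zinc-dependent enzymes that cut collagens, elastin, proteoglycans and cell-surface proteins, and most are secreted as inactive precursors. TIMP proteins bind the active site of these enzymes, and ADAMTS proteases process procollagens or cut the large proteoglycans of the matrix. In colitis these enzymes are made by fibroblasts, by the epithelium and by the neutrophils and macrophages that enter the tissue.

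Libraries held 24817527 to 36344372 counts, and 45 to 49 members had at least 1 count in a library. Levels are given as CPM (read counts relative to the library total). All 8 markers of colonic epithelium were found in every group, with summed levels of median 12386 CPM in C57BL/6, 12628 CPM in Winnie and 9045 CPM in Winnie-Prolapse. A few libraries stood apart. In Winnie-Prolapse replicate 6 milk protein genes took 18.0% of all counts, against at most 0.00542% in the other libraries. C57BL/6 replicate 7 held an outlying value of 7 members, and it had the lowest Ly6g level of all libraries (3.80 CPM, against a C57BL/6 median of 286 CPM). Winnie-Prolapse against C57BL/6, which called 20 members and 18.3% of all genes, called 20 without C57BL/6 replicate 7, against 20.1% of all genes. It called 19 without Winnie-Prolapse replicate 6, against 15.3%.

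The larger number of calls lay between Winnie-Prolapse and C57BL/6, and most of them were increases. At an adjusted p under 0.001 and at least 1.5-fold in edgeR, 17 of the 43 members tested (39.5%) were upregulated, against 9.84% of all genes tested. They were Mmp3, Mmp8, Mmp9, Mmp10, Mmp12, Mmp13, Mmp14, Mmp19, Mmp25, Mmp28, Timp1, Adamts3, Adamts4, Adamts6, Adamts7, Adamts12 and Adamts14. Of these, Mmp8 and Mmp25 passed the filter on low counts only through the Winnie-Prolapse libraries, where they were high. Adamts3 and Adamts4 also needed those libraries to pass, so the count is a description. Only 3 members (6.98%) were downregulated, namely Mmp17, Adamts8 and Adamtsl5, against 8.47% of all genes. With the limit on the adjusted p set at 0.05, 21 members were higher and 8 lower, against 16.7% and 17.7% of all genes. For 16 of the 43 members, or 37.2%, no Winnie-Prolapse library fell within the CPM range of C57BL/6 or the reverse, against 16% of all genes. The median log2 fold change was 0.44 over the members and -0.01 over all genes.

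In Winnie against C57BL/6, edgeR called none of the 41 members tested at an adjusted p under 0.001, where 0.0868% of all genes were called higher and 0.00578% lower. At an unadjusted p under 0.05 there were 22 of 41 members (53.7%), against 39.9% of all genes. DESeq2 called 5 of 46 members (10.9%), which were Mmp10, Mmp16, Mmp25, Adamts8 and Adamtsl5, against 5.84% of all genes, and limma-voom called none, against 0% of all genes. At an adjusted p under 0.05 and 1.5-fold edgeR found 4 members higher (Mmp10, Mmp13, Adamts6 and Adamts7), against 7.42% of all genes. It found 6 lower (Mmp16, Mmp17, Timp3, Adamts8, Adamts20 and Adamtsl5), against 8.53%. As shares of the members these are 9.76% and 14.6%. Ranges did not overlap for Mmp16 and Adamts8, or 4.88% of members, against 1.64% of all genes.

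In Winnie-Prolapse against Winnie, edgeR likewise called none of 42 members at an adjusted p under 0.001, against 0% of all genes in either direction. There were 19 members (45.2%) at an unadjusted p under 0.05, against 27.8% of all genes. DESeq2 called 9 of 46 members (19.6%), against 3.09% of all genes, and limma-voom 0 against 0%. At an adjusted p under 0.05 and 1.5-fold, 10 members (23.8%) were higher, against 4.27% of all genes, and 0 lower, against 2.72%. The 10 were Mmp3, Mmp7, Mmp8, Mmp9, Mmp10, Mmp12, Mmp13, Mmp19, Mmp28 and Timp1. Of these, Mmp7 and Mmp8 passed the filter on low counts only through the Winnie-Prolapse libraries, where they were high, so the count is a description. Timp1 was the 1 member whose ranges did not overlap (2.38%, against 0.962% of all genes). The comparisons share groups of samples and are therefore not independent of each other.

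**Figure D1:**
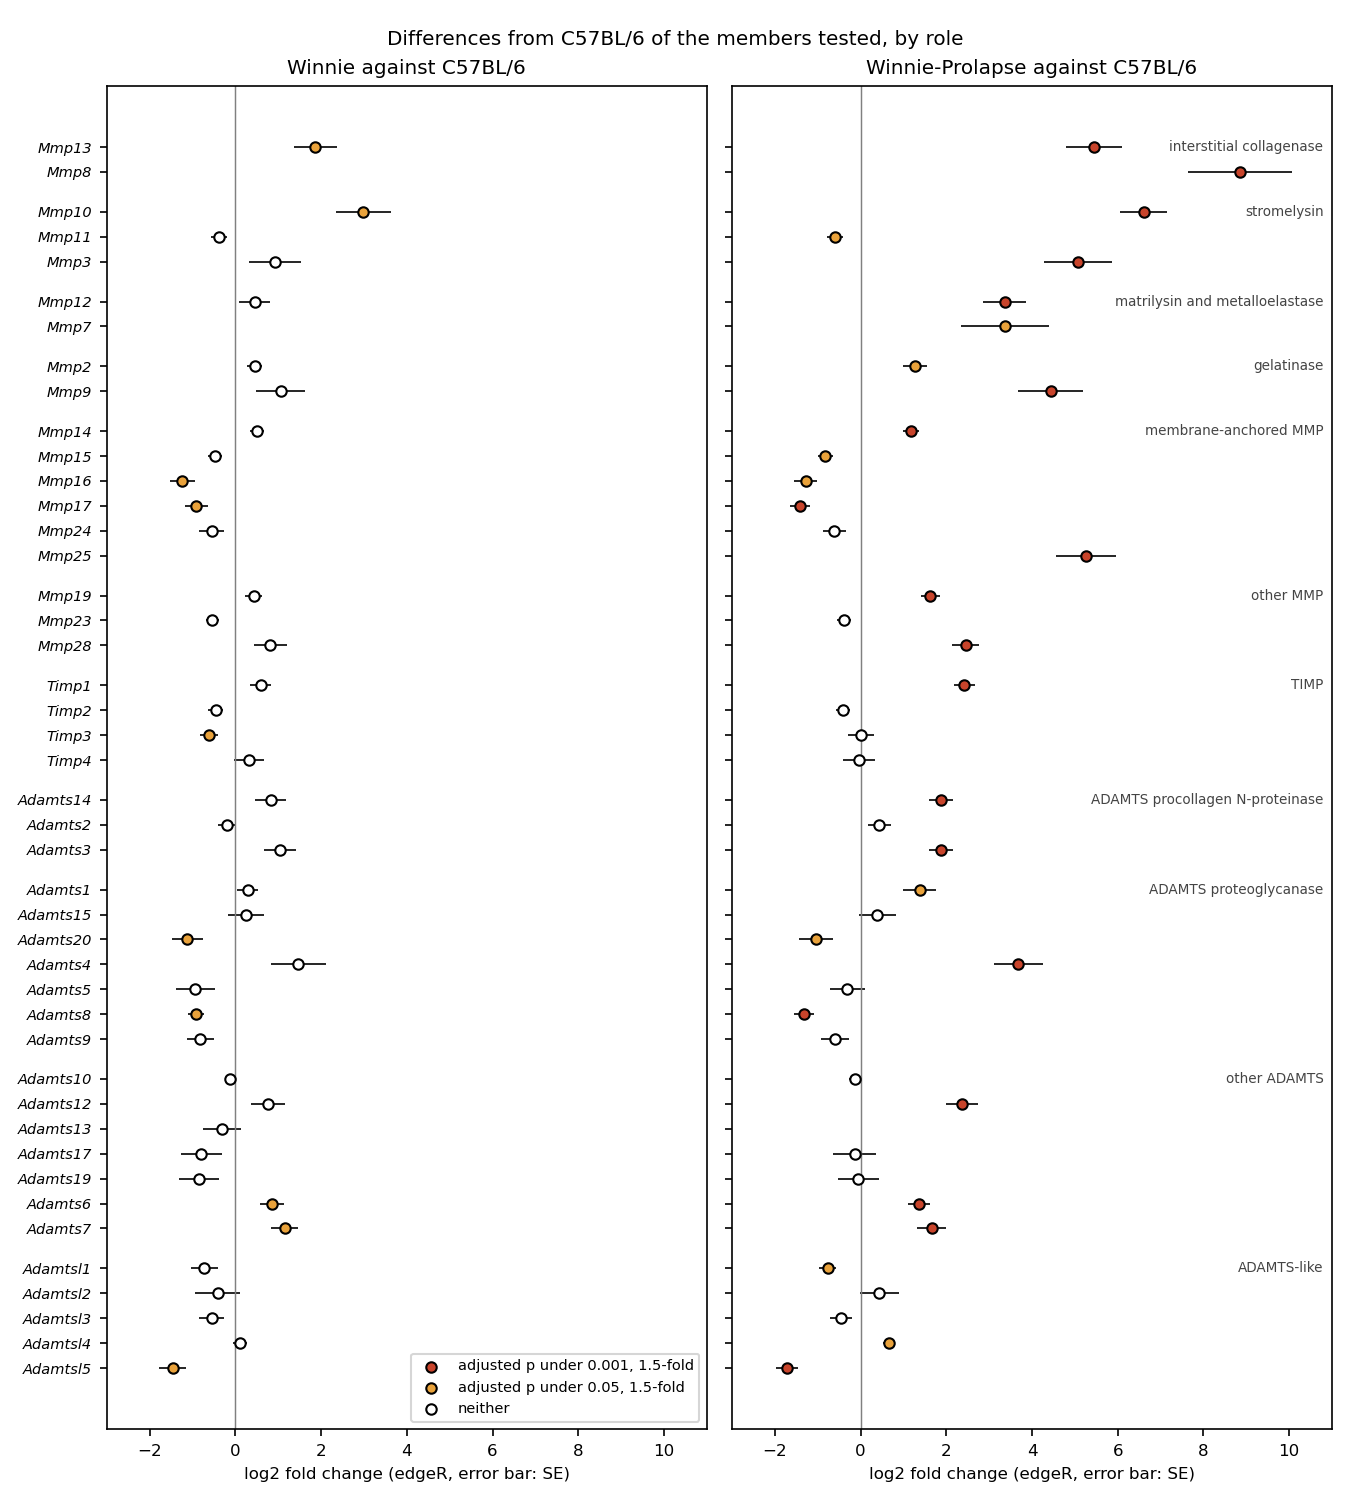
Log2 fold change of each member tested in Winnie (left) and in Winnie-Prolapse (right) against C57BL/6, grouped by role, with the standard error from edgeR as the bar. Filled red points were called at an adjusted p under 0.001 and orange ones at 0.05; the largest change was that of Mmp8 in Winnie-Prolapse, at 8.85.

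The interstitial collagenases, which make the first cut in fibrillar collagen, are Mmp1a, Mmp1b, Mmp8 and Mmp13 in the mouse. Mmp13 (ENSMUSG00000050578), the main collagenase of rodents, ran from 0.833 to 3.84 CPM in C57BL/6 (median 2.58), from 1.44 to 33.0 CPM in Winnie (median 5.13) and from 9.35 to 349.6 CPM in Winnie-Prolapse (median 109). Winnie-Prolapse lay wholly above C57BL/6, and 6 of 7 Winnie libraries were above the highest C57BL/6 library. The log2 fold change was 5.45 ± 0.65 (SE) in Winnie-Prolapse (adjusted p = 8.93e-06) and 1.87 ± 0.50 in Winnie (adjusted p = 0.0158). Without Winnie replicate 2 the latter was 1.12 (adjusted p = 0.0426).

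Mmp8 (ENSMUSG00000005800), the collagenase stored in neutrophil granules, was almost undetected in C57BL/6, with 11 counts over the 8 libraries and at most 0.231 CPM. It reached 3.11 CPM in Winnie (lowest 0, median 0.100) and ran from 1.42 to 106 CPM in Winnie-Prolapse (median 4.05). All Winnie-Prolapse libraries were above all C57BL/6 libraries, and Winnie-Prolapse replicate 4 was far above the rest. The log2 fold change against C57BL/6 was 8.85 ± 1.22 (adjusted p = 3.14e-05). Mmp8 passed the filter on low counts only through the Winnie-Prolapse libraries, and the value rests on those few counts in C57BL/6. It was 7.77 without Winnie-Prolapse replicate 4 and 9.71 without C57BL/6 replicate 5. Mmp1a and Mmp1b were seen in few libraries: Mmp1a had 4 counts, all in Winnie-Prolapse replicate 4, and Mmp1b at most 9 counts in a library, also in that library.

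The stromelysins Mmp3 and Mmp10 cut proteoglycans and other matrix proteins and can activate precursor forms of the collagenases. Mmp10 (ENSMUSG00000047562) lay between 0.393 and 0.849 CPM in C57BL/6 (median 0.563), between 0.591 and 22.4 CPM in Winnie (median 2.0) and between 6.05 and 139 CPM in Winnie-Prolapse (median 65.5). Here too 6 of 7 Winnie libraries exceeded every C57BL/6 library. Its log2 fold change of 6.60 ± 0.54 in Winnie-Prolapse had the smallest adjusted p of all members (3.12e-07). In Winnie it was 2.98 ± 0.64 (adjusted p = 0.00620), and 1.62 without Winnie replicate 2 (adjusted p = 0.00458).

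Mmp3 (ENSMUSG00000043613) ran from 0.603 to 2.08 CPM in C57BL/6 (median 1.09), from 0.374 to 10.3 CPM in Winnie (median 0.853) and from 1.27 to 167 CPM in Winnie-Prolapse (median 27.8). In Winnie, replicate 2 alone was above the highest C57BL/6 library, and Winnie-Prolapse replicate 3 lay within the C57BL/6 range. The log2 fold change of 5.08 ± 0.79 in Winnie-Prolapse (edgeR adjusted p = 9.16e-05) was 4.00 without Winnie-Prolapse replicate 4, and limma-voom gave an adjusted p of 0.00843, short of the threshold. Mmp11, the third stromelysin by name, went the other way, from a mean of 3.84 ± 0.58 CPM (SD, n = 8) in C57BL/6 to 2.47 ± 1.06 CPM (n = 7) in Winnie-Prolapse. Its log2 fold change was -0.59 ± 0.19 (adjusted p = 0.0152).

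Mmp12, the elastase of macrophages, and Mmp7, the matrilysin known from epithelia, were both highest in Winnie-Prolapse. Mmp12 ran from 0.362 to 3.66 CPM in C57BL/6 (median 1.45), from 1.32 to 3.27 CPM in Winnie (median 1.79) and from 2.81 to 30.0 CPM in Winnie-Prolapse (median 16.1). Winnie lay inside the C57BL/6 range, while 6 of 7 Winnie-Prolapse libraries lay above it. In log2 terms Mmp12 differed by 3.36 ± 0.51 in Winnie-Prolapse against C57BL/6 (adjusted p = 6.75e-05) and 2.92 ± 0.46 against Winnie (adjusted p = 0.00787). Mmp12 overlaps Mmp1b on the other strand, and whether the counting used the strand is not given in the sources used here.

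Mmp7 was at most 0.0786 CPM in 7 of 8 C57BL/6 libraries and 3.04 CPM in replicate 2. It ran from 0.0288 to 1.38 CPM in Winnie (median 0.101) and from 0.575 to 9.32 CPM in Winnie-Prolapse (median 1.62). Only 3 of 7 Winnie-Prolapse libraries were above C57BL/6 replicate 2. The log2 fold change in Winnie-Prolapse was 3.37 ± 1.03 (adjusted p = 0.0123), and 6.54 without C57BL/6 replicate 2 (adjusted p = 2.76e-05). Against Winnie it was 3.60 ± 0.85 (adjusted p = 0.0243). In both comparisons Mmp7 passed the filter on low counts only through the Winnie-Prolapse libraries.

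**Figure D2:**
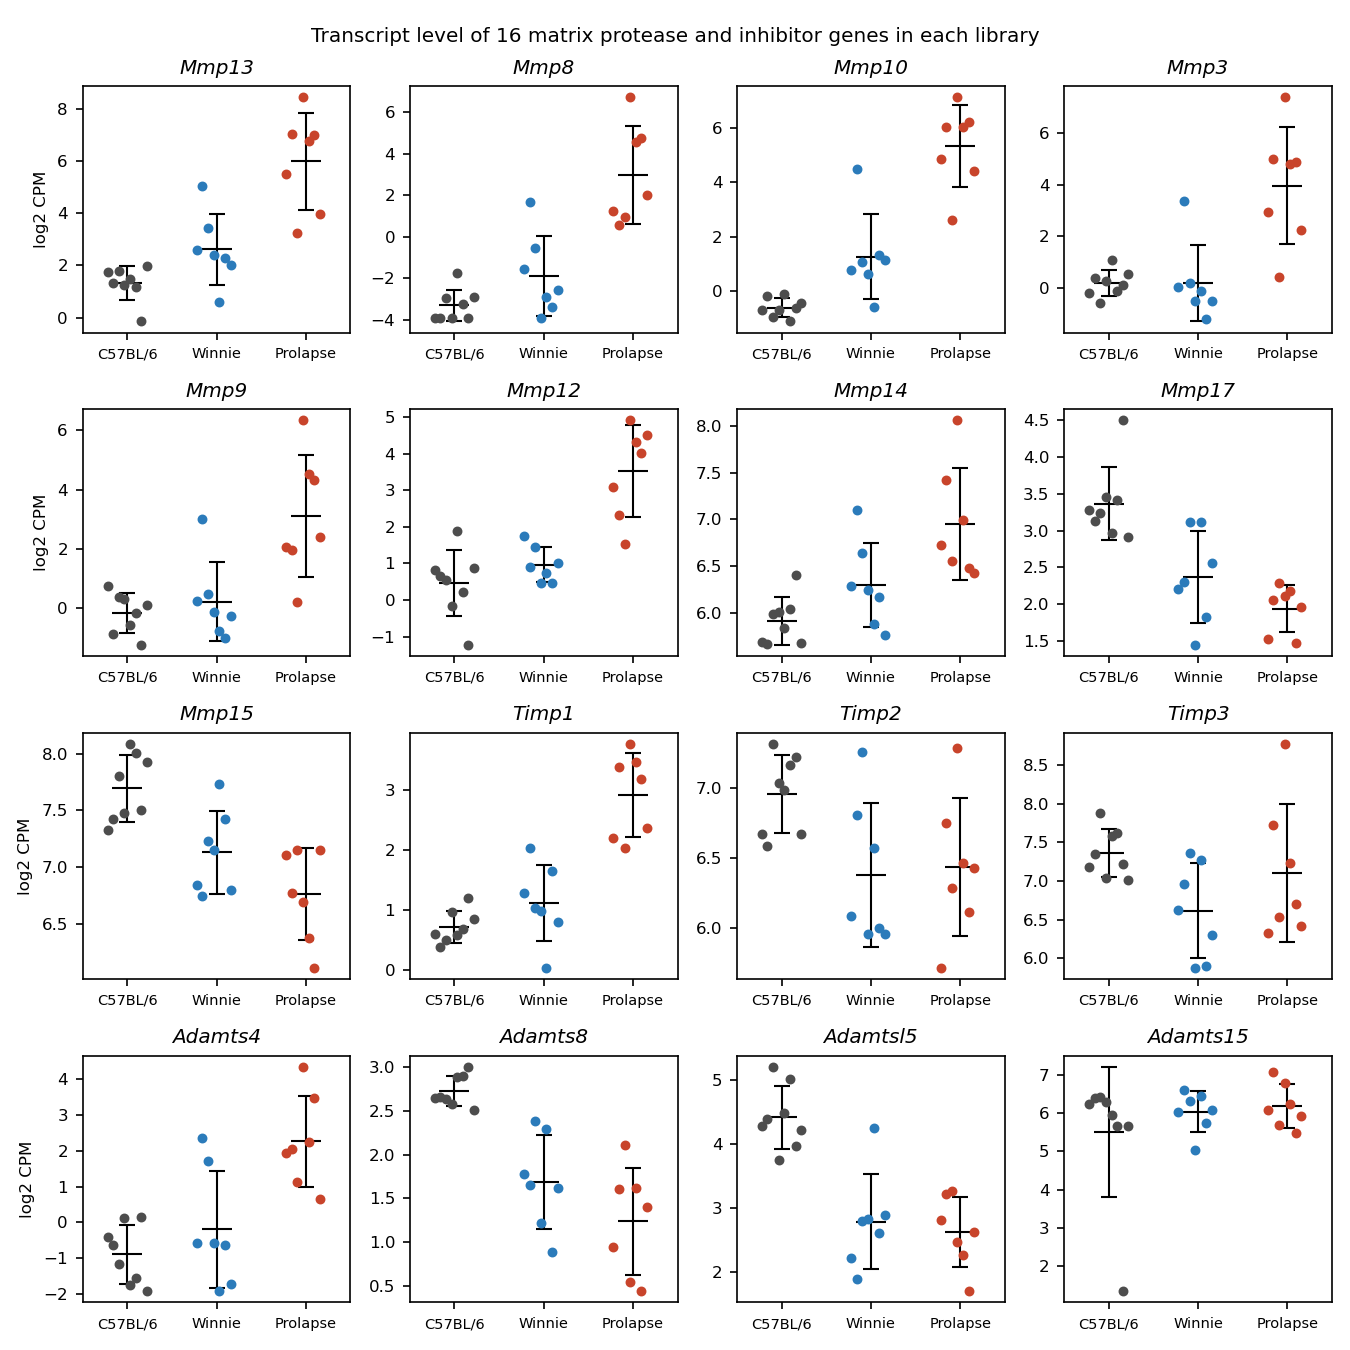
Level of 16 members in each library, as log2 CPM, with 1 point per library and the mean and SD of each group in black. For Mmp13, Mmp8 and Mmp10 every Winnie-Prolapse point lies above every C57BL/6 point, while Timp2 and Timp3 overlap between groups and Adamts15 is low in C57BL/6 replicate 7.

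Apart from Mmp11, which lies on chromosome 10, these genes sit side by side on chromosome 9. In GRCm38, 10 Mmp genes fall within 427072 bases (chr9:7272514-7699585), in the order Mmp13, Mmp12, Mmp1b, Mmp3, Mmp1a, Mmp10, Mmp8, Mmp27, Mmp20 and Mmp7. Of the 6 tested in Winnie-Prolapse against C57BL/6, 5 were called higher, where 9.84% of all genes were called higher and 8.47% lower, with log2 fold changes from 3.36 to 8.85 over the 6. Mmp7 and Mmp8, and Mmp25 among the genes elsewhere, passed the filter on low counts only through the Winnie-Prolapse libraries, so these counts and ranges are a description. Of the 12 Mmp genes tested elsewhere in the genome, 5 were called higher and 1 lower, with a median of 0.39 and a range of -1.42 to 5.25. Against Winnie the 6 cluster genes spanned 2.92 to 5.32. The neighbours Mmp1b, Mmp1a, Mmp27 and Mmp20 were hardly detected in any group. A second gene identifier for Mmp27 had no count in any library.

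**Figure D3:**
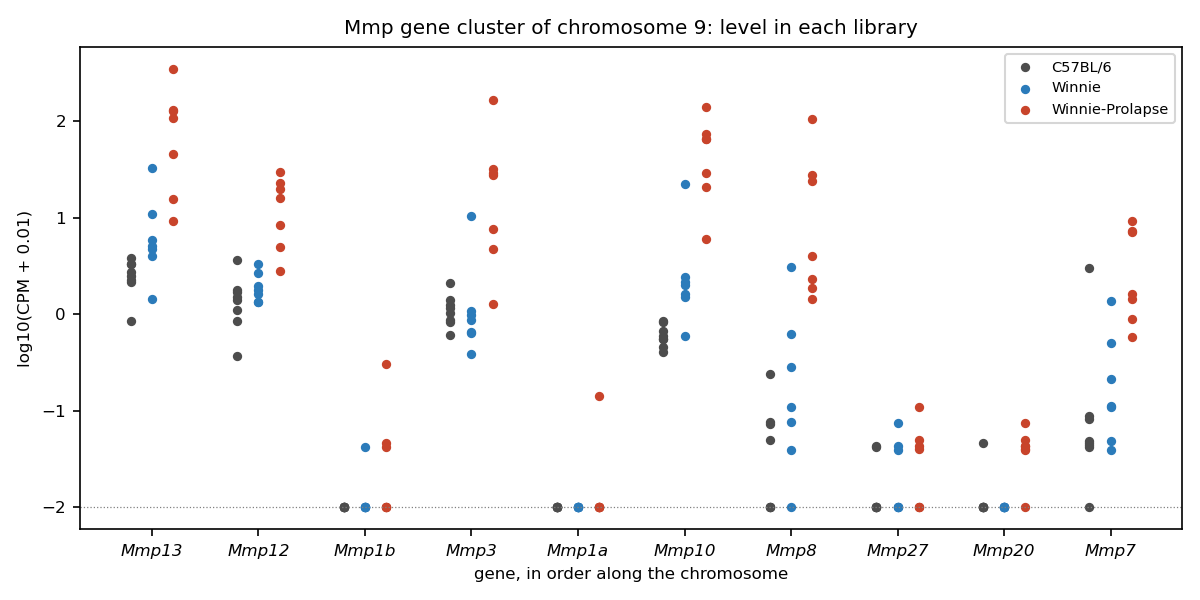
Level of the 10 Mmp genes of the chromosome 9 cluster in each library, in their order along the chromosome, on a scale of log10(CPM + 0.01); the dotted line marks 0 counts. Mmp1b, Mmp1a, Mmp27 and Mmp20 stay near the bottom in all groups, and the highest point of each of the 6 tested genes is a Winnie-Prolapse library.

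Promoter sequence from RefSeq (GRCm38.p6, 250 bases before to 50 after a start site) was at hand for 36 of the 51 member symbols. The letters TGAGTCA, the binding sequence known for AP-1, and TATAAA, the core of the TATA box, were searched on both strands. TGAGTCA was found in 7 of the 36 symbols and in 5.95% of all 27025 genes with a window, and all 7 belong to the cluster (Mmp3, Mmp7, Mmp10, Mmp12, Mmp13, Mmp1a and Mmp1b). TATAAA was found in 12 of the 36 and in 15.7% of all these genes. Both occurred together in the same 7 genes and in 1.12% of all. The 100 bases before the start are shown for the 6 tested cluster genes and for Mmp1a, which was nearly silent, to set their motifs side by side, with both motifs in capitals. They lie on the forward strand at chr9:7502242-7502341 (Mmp10), chr9:7445722-7445821 (Mmp3), chr9:7272414-7272513 (Mmp13), chr9:7347274-7347373 (Mmp12), chr9:7691990-7692089 (Mmp7), chr9:7558329-7558428 (Mmp8) and chr9:7464041-7464140 (Mmp1a).
Mmp10: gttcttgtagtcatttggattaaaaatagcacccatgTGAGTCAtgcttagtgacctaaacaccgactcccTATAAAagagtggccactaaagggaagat
Mmp3: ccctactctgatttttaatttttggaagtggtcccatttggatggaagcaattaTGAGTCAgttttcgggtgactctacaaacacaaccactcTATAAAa
Mmp13: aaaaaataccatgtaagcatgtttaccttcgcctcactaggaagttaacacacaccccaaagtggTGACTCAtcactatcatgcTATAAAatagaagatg
Mmp12: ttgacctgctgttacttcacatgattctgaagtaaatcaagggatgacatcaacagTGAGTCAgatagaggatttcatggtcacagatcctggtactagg
Mmp7: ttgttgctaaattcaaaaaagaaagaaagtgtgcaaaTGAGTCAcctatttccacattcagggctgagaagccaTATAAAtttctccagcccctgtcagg
Mmp8: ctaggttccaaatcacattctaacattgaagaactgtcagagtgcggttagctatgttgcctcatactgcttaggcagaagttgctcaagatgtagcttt
Mmp1a: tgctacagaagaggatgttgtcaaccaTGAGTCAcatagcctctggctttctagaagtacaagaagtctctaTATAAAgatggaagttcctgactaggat

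TGAGTCA, or its reverse complement TGACTCA in Mmp13, begins 63 bases before the start in Mmp10 and Mmp7, 46 in Mmp3, 44 in Mmp12, 35 in Mmp13 and 73 in Mmp1a. In Mmp8 these letters are not in the window, and its TATAAA lies on the opposite strand, begins 3 bases before the start and so is not whole in the stretch shown. Mmp1a, with 4 counts in all, has both motifs. In Mmp12 the TATAAA begins at base 5 after the start shown, the downstream start of the 2 listed. Mmp7 also has 2 listed starts. For both genes the start with the most TGAGTCA matches was shown, or the first along the chromosome where these were equal. Their motif positions therefore depend on that choice. A match is a description of the letters only.

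The gelatinases Mmp2 and Mmp9 cut denatured collagen and the collagen of basement membranes. Mmp9 (chr2:164940780-164955850), a neutrophil granule enzyme also made by macrophages, ran from 0.362 to 1.61 CPM in C57BL/6 (median 0.926), from 0.431 to 8.07 CPM in Winnie (median 0.844) and from 1.09 to 80.3 CPM in Winnie-Prolapse (median 5.26). A single Winnie library, replicate 2, was above the C57BL/6 range, as were 6 of 7 Winnie-Prolapse libraries. In Winnie-Prolapse the log2 fold change was 4.44 ± 0.76 in edgeR (adjusted p = 0.000199) and 3.52 without Winnie-Prolapse replicate 4. It was not called by limma-voom (adjusted p = 0.00798). Mmp2, a product of stromal cells, was far more even, with means of 31.2 ± 4.00, 40.4 ± 15.3 and 73.9 ± 52.4 CPM in C57BL/6, Winnie and Winnie-Prolapse. Its log2 fold change of 1.27 ± 0.27 in Winnie-Prolapse had an adjusted p of 0.00118.

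Among the membrane-anchored metalloproteinases the direction was split. Mmp14 (chr14:54431612-54445364), which activates the precursor of Mmp2 at the cell surface, ran from 50.8 to 84.9 CPM in C57BL/6 (median 60.3), from 54.6 to 137 CPM in Winnie (median 76.0) and from 86.0 to 266 CPM in Winnie-Prolapse (median 106). Winnie-Prolapse lay wholly above C57BL/6, with a log2 fold change of 1.18 ± 0.19 (adjusted p = 0.00015). Mmp25, a glycolipid-anchored enzyme of leukocytes, was at most 0.386 CPM in C57BL/6, ran from 0.131 to 3.20 CPM in Winnie (median 0.403) and from 0.756 to 17.7 CPM in Winnie-Prolapse (median 2.22). Its ranges in Winnie-Prolapse and C57BL/6 did not meet either, and the log2 fold change was 5.25 ± 0.70 (adjusted p = 2.44e-05), or 4.57 without Winnie-Prolapse replicate 4.

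Mmp17, the other glycolipid-anchored member, fell. It ran from 7.45 to 22.5 CPM in C57BL/6 (median 9.52), from 2.67 to 8.63 CPM in Winnie (median 4.87) and from 2.70 to 4.81 CPM in Winnie-Prolapse (median 4.11). All Winnie-Prolapse libraries and 5 of 7 Winnie libraries were below the lowest C57BL/6 library. The log2 fold changes were -1.42 ± 0.24 in Winnie-Prolapse (adjusted p = 0.000148) and -0.92 ± 0.27 in Winnie (adjusted p = 0.0228).

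Mmp15 and Mmp16 were lower in Winnie-Prolapse with the limit at 0.05. Mmp15 ran from 160 to 272 CPM in C57BL/6 (median 202), from 107 to 213 CPM in Winnie (median 142) and from 68.9 to 142 CPM in Winnie-Prolapse (median 109), with no overlap between Winnie-Prolapse and C57BL/6. Its log2 fold change there was -0.82 ± 0.17 (adjusted p = 0.00103), which passed 0.001 in DESeq2 and limma-voom (adjusted p = 6.15e-05 and 0.000774). Mmp16, a rare transcript, had means of 1.06 ± 0.22, 0.434 ± 0.272 and 0.410 ± 0.199 CPM in the 3 groups. Every Winnie and every Winnie-Prolapse library was below every C57BL/6 library, with log2 fold changes of -1.24 ± 0.30 (adjusted p = 0.00964) and -1.28 ± 0.27 (adjusted p = 0.00101). Mmp24 had means of 0.715, 0.463 and 0.441 CPM and was not called.

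Of the remaining metalloproteinases, Mmp19 and Mmp28 were upregulated in Winnie-Prolapse. Mmp28 (epilysin), an enzyme of keratinocytes and other epithelia, ran from 2.55 to 11.2 CPM in C57BL/6 (median 3.49), from 3.55 to 20.3 CPM in Winnie (median 5.56) and from 11.8 to 39.5 CPM in Winnie-Prolapse (median 24.1). Its log2 fold change was 2.45 ± 0.32 (adjusted p = 1.77e-05). Mmp19 had means of 5.23 ± 0.94, 6.67 ± 2.59 and 15.6 ± 8.47 CPM, with a log2 fold change of 1.63 ± 0.23 in Winnie-Prolapse (adjusted p = 3.72e-05). Neither overlapped between Winnie-Prolapse and C57BL/6. Mmp23 (means 5.03, 3.29 and 3.66 CPM) did not pass 1.5-fold in any comparison. Mmp20, the enamel protease, and Mmp21 had at most 2 counts in a library.

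Of the 4 inhibitors, Timp1 alone was called in Winnie-Prolapse, as higher, where 9.84% of all genes were called higher and 8.47% lower. Timp1 (ENSMUSG00000001131, chrX:20870166-20874735) is the inhibitor known to be induced by inflammatory cytokines. It ran from 1.23 to 2.21 CPM in C57BL/6 (median 1.48), from 0.952 to 4.01 CPM in Winnie (median 1.97) and from 4.02 to 13.6 CPM in Winnie-Prolapse (median 9.03). The lowest Winnie-Prolapse library was just above the highest Winnie library and well above C57BL/6. The difference was 2.42 ± 0.25 on the log2 scale against C57BL/6 (adjusted p = 2.56e-06) and 1.83 ± 0.33 against Winnie (adjusted p = 0.0134). Timp1 overlaps Syn1 on the other strand.

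Timp2 and Timp3 made up most of the inhibitor transcripts. Timp2 ran from 96.1 to 159 CPM in C57BL/6 (median 129), from 62.1 to 153 CPM in Winnie (median 67.8) and from 52.5 to 155 CPM in Winnie-Prolapse (median 86.2), and was called in no comparison. Timp3, which is held in the matrix and also inhibits ADAMTS proteases, ran from 129 to 235 CPM, from 58.7 to 164 CPM and from 80.0 to 438 CPM in the same order. In Winnie 5 of 7 libraries were below every C57BL/6 library, and the log2 fold change was -0.61 ± 0.21 (adjusted p = 0.0395, and up to 0.0755 with 1 library left out). Winnie-Prolapse replicate 4 held the 438 CPM, more than any other library. Timp4 had means of 5.20 ± 2.29, 6.18 ± 2.41 and 4.78 ± 2.04 CPM and was not called.

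The sum of all Mmp transcripts in relation to the sum of all Timp transcripts was computed in each library as a description, without a test. This ratio was 1.15 ± 0.17 (SD, n = 8) in C57BL/6, 1.69 ± 0.51 (n = 7) in Winnie and 2.42 ± 0.45 (n = 7) in Winnie-Prolapse. The summed Mmp transcripts were 342 ± 46.1, 316 ± 68.0 and 647 ± 410 CPM in the same order, and the summed Timp transcripts 301 ± 55.2, 202 ± 77.1 and 270.0 ± 163 CPM. In Winnie the means of both sums lay below those of C57BL/6. The ratio ranged from 0.891 to 1.49, from 1.05 to 2.46 and from 1.84 to 3.01, so that Winnie-Prolapse and C57BL/6 did not overlap. The makeup of the sum changed with it. In C57BL/6, Mmp15 held 61.2 ± 5.8% of the summed Mmp CPM, compared with 46.9 ± 12.6% for Winnie and 22.9 ± 14.0% for Winnie-Prolapse. Mmp13 held 0.782 ± 0.307%, 2.62 ± 2.29% and 14.4 ± 8.5%, and Mmp10 0.180 ± 0.055%, 1.24 ± 1.71% and 8.09 ± 3.74%. The Mmp10 share in Winnie had a median of 0.607% and was highest in replicate 2, at 5.08%. With CPM per kilobase of exon the shares were 1.43%, 4.33% and 17.5% for Mmp13 and 0.512%, 3.07% and 15.7% for Mmp10. Per kilobase of exon, Mmp15 was the most abundant member in C57BL/6 (39.0 ± 8.0 CPM per kb), ahead of Timp2 (32.3 ± 6.1), with overlapping SDs, and of Timp3 (20.6 ± 4.6). In Winnie-Prolapse, Mmp13 (42.1 ± 43.5 CPM per kb) and Mmp10 (33.2 ± 25.8) came first, with spreads that cover the next members, Timp2 (23.4 ± 8.5) and Mmp14 (22.5 ± 11).

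**Figure D4:**
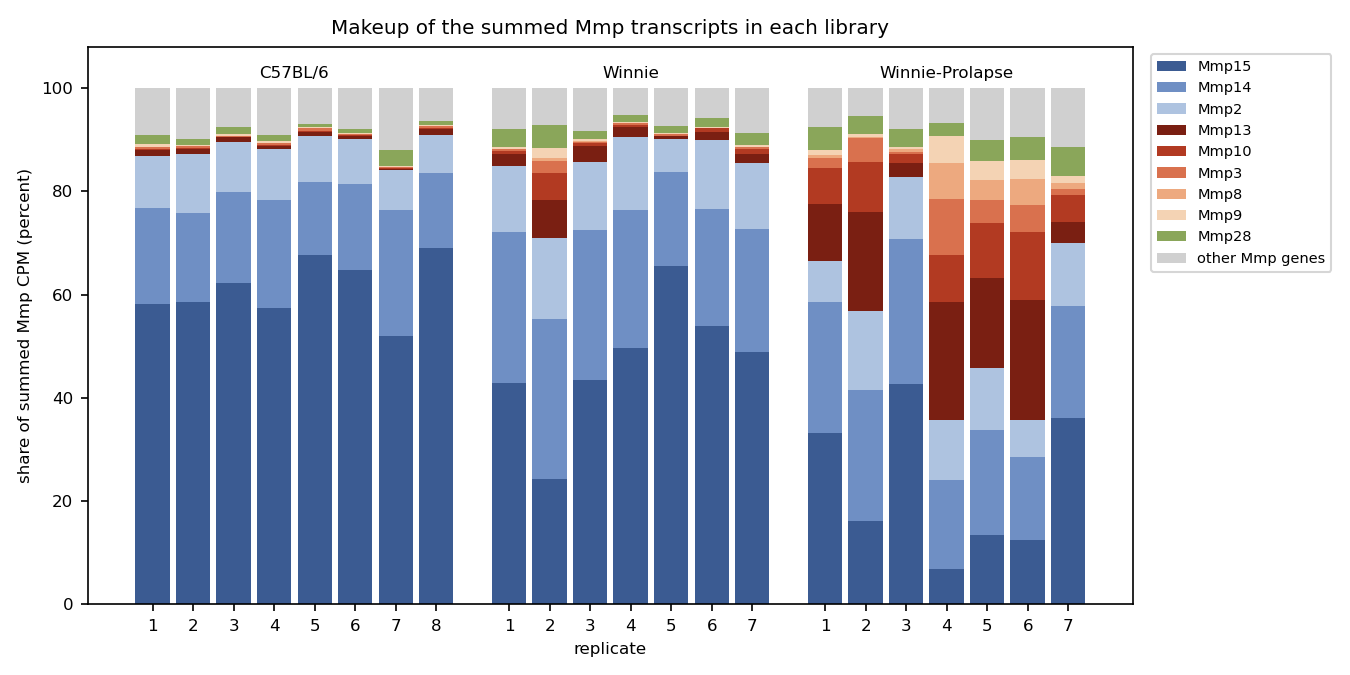
Share of the summed Mmp CPM, in percent, held by each of 9 Mmp genes and by all others, 1 bar per library. Mmp15, Mmp14 and Mmp2 (blue) fill most of each C57BL/6 bar, while Mmp13, Mmp10, Mmp3, Mmp8 and Mmp9 (red to cream) together hold 0.802% to 2.28% of it there, 1.07% to 17.4% in Winnie and 5.91% to 55.0% in Winnie-Prolapse.

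ADAMTS proteases that remove the amino propeptide of fibrillar procollagens were upregulated in 2 of 3 cases, against 9.84% of all genes. Adamts3 needed the Winnie-Prolapse libraries to pass the filter on low counts, so this count is a description. Adamts14 had means of 0.643 ± 0.199, 1.10 ± 0.866 and 2.32 ± 1.38 CPM in C57BL/6, Winnie and Winnie-Prolapse, with a log2 fold change of 1.88 ± 0.28 in the last (adjusted p = 6.19e-05). Adamts3 had means of 0.410 ± 0.158, 0.806 ± 0.514 and 1.42 ± 0.487 CPM and a log2 fold change of 1.87 ± 0.28 (adjusted p = 6.02e-05). Neither overlapped between Winnie-Prolapse and C57BL/6. Adamts2, the most abundant of the 3 per kilobase in C57BL/6 (1.14 CPM per kb, against 0.124 for Adamts14 and 0.0756 for Adamts3), was not called.

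Of the 7 proteoglycan-cutting members, 1 was called higher and 1 lower in Winnie-Prolapse, against 9.84% and 8.47% of all genes. The member called higher, Adamts4, needed the Winnie-Prolapse libraries to pass the filter on low counts, so this count is a description. Adamts4, an aggrecanase that also cuts versican, ran from 0.199 to 1.05 CPM in C57BL/6 (median 0.481), from 0.197 to 5.09 CPM in Winnie (median 0.605) and from 1.51 to 20.2 CPM in Winnie-Prolapse (median 4.04). Winnie-Prolapse lay wholly above C57BL/6, while Winnie replicates 2 and 3 alone of their group did so. Its log2 fold change was 3.68 ± 0.57 (adjusted p = 8.43e-05).

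Adamts8 fell in both disease groups. It ran from 5.63 to 7.93 CPM in C57BL/6 (median 6.20), from 1.78 to 5.17 CPM in Winnie (median 3.08) and from 1.29 to 4.24 CPM in Winnie-Prolapse (median 2.58). All 14 libraries of the disease groups were below all 8 of C57BL/6. Log2 fold changes were -0.91 ± 0.18 in Winnie (adjusted p = 0.00472) and -1.32 ± 0.23 in Winnie-Prolapse (adjusted p = 0.000241).

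Adamts15 was the most abundant of this class per kilobase in each group. It ran from 50.8 to 85.8 CPM in 7 C57BL/6 libraries but stood at 2.46 CPM in C57BL/6 replicate 7, and had means of 69.2 ± 21.8 and 77.8 ± 33.0 CPM in Winnie and Winnie-Prolapse. Adamts9 (means 14.0, 7.62 and 8.80 CPM) and Adamts5 (7.15, 3.67 and 5.53 CPM) were not called. Adamts1 reached an adjusted p of 0.00728 in Winnie-Prolapse, with a log2 fold change of 1.38 ± 0.39. Adamts20, with means of 0.580, 0.256 and 0.270 CPM, was lower in Winnie (-1.12 ± 0.37, adjusted p = 0.0352) and in Winnie-Prolapse (-1.04 ± 0.40, adjusted p = 0.0398).

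Adamts12, Adamts7 and Adamts6 were called higher among the other ADAMTS genes. Adamts12 and Adamts7 are known to cut cartilage oligomeric matrix protein. Adamts12 had means of 0.527 ± 0.151, 0.868 ± 0.820 and 2.64 ± 1.82 CPM and a log2 fold change of 2.36 ± 0.38 in Winnie-Prolapse (adjusted p = 0.00011). Adamts7 had means of 1.39 ± 0.62, 2.95 ± 1.66 and 4.27 ± 2.91 CPM, with log2 fold changes of 1.15 ± 0.31 in Winnie (adjusted p = 0.0165) and 1.66 ± 0.34 in Winnie-Prolapse (adjusted p = 0.00083). Adamts6 had means of 0.633 ± 0.243, 1.10 ± 0.54 and 1.58 ± 0.68 CPM, with log2 fold changes of 0.85 ± 0.29 (adjusted p = 0.0386) and 1.37 ± 0.26 (adjusted p = 0.000479). The calls of Adamts6 and Adamts7 in Winnie-Prolapse were close to the threshold and held in 8 and 5 of 15 fits with 1 library left out. Adamts10, the most abundant of these genes per kilobase, had means of 9.49, 8.28 and 8.34 CPM and was not called, and neither were Adamts17 and Adamts19. Adamts13, which among the group comparisons passed the filter only in Winnie against C57BL/6, was not called there. Adamts16 and Adamts18 missed the filter on low counts, with at most 63 and 38 counts in a library.

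In the ADAMTS-like group, Adamtsl5 fell in both disease groups. This secreted protein of fibrillin microfibrils ran from 13.5 to 36.9 CPM in C57BL/6 (median 20.2), from 3.65 to 19 CPM in Winnie (median 6.86) and from 3.18 to 9.59 CPM in Winnie-Prolapse (median 6.11). In Winnie, replicate 5 with 19 CPM was the 1 library within the C57BL/6 range. The log2 fold changes were -1.46 ± 0.32 in Winnie (adjusted p = 0.00652) and -1.72 ± 0.26 in Winnie-Prolapse (adjusted p = 6.00e-05). Without Winnie replicate 5 the former was -1.83 (adjusted p = 0.000273), and in that fit it was the 1 member called of 41 (2.44%), against 1.38% of all genes called lower and 3.89% in either direction. Adamtsl4 (means 24.4, 25 and 36.7 CPM) had a log2 fold change of 0.66 ± 0.14 in Winnie-Prolapse (adjusted p = 0.00123), and Adamtsl1 (5.70, 3.37 and 3.19 CPM) one of -0.77 ± 0.20 (adjusted p = 0.00442). Adamtsl2 and Adamtsl3 were not called.

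Libraries of a group differed widely in how many of the 20 called members lay beyond the C57BL/6 range, in the direction of the Winnie-Prolapse change. In Winnie-Prolapse, whose call chose these members, the number was 15 in replicate 3 and 19 or 20 in the other 6 libraries, or 75% to 100% of the members, against 82.5% to 98.5% of all 3186 genes called in the same comparison. In Winnie it was 19 in replicate 2 (95%, against 92.9% of all genes called), 13 in replicate 3 (65%, against 58.1%) and 10 in replicate 1 (50%, against 84.6%). It was 7 in replicates 4 and 6 (35%, against 54.7% and 62.7%), 5 in replicate 7 (25%, against 66.7%) and 1 in replicate 5 (5%, against 9.26%). The Winnie mean lay between the means of the other groups for 20 of 20 members, against 97.2% of the genes called. These genes were chosen for a difference between the other groups, so the count is a description. For Mmp3 and Mmp9 it rested on Winnie replicate 2. The other 6 Winnie libraries averaged 0.758 CPM for Mmp3 and 0.841 CPM for Mmp9, below the C57BL/6 means. Winnie-Prolapse replicate 4 held the highest value of all 22 libraries for each of the 17 members called higher, against 40.3% of the 1712 genes called higher. Without it, edgeR called 19 members (43.2%), 18 of them among the 20, against 15.7% of all genes.

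Of the 10 members that passed 0.05 as higher in Winnie-Prolapse than in Winnie, Mmp7, Mmp12 and Timp1 are given with their genes. Mmp7 and Mmp8 passed the filter on low counts only through the Winnie-Prolapse libraries, where they were high, so their values are a description. For the others, log2 fold changes were 5.32 ± 1.25 for Mmp8 (adjusted p = 0.0240), 4.16 ± 1.03 for Mmp3 (0.0276), 3.63 ± 0.82 for Mmp10 (0.0215) and 3.59 ± 0.80 for Mmp13 (0.0205). They were 3.39 ± 0.93 for Mmp9 (adjusted p = 0.0375), 1.65 ± 0.35 for Mmp28 (0.0184) and 1.21 ± 0.27 for Mmp19 (0.0221). These values leaned on single libraries. Without Winnie-Prolapse replicate 4, Mmp9 (2.46, adjusted p = 0.0877), Mmp3 (3.07, 0.0620) and Mmp8 (4.24, 0.0501) no longer passed. Without Winnie replicate 2, the values were 7.03 for Mmp8, 5.59 for Mmp3, 5.00 for Mmp10, 4.57 for Mmp7, 4.5 for Mmp9 and 4.35 for Mmp13.

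Males and females were compared with the group held fixed. Of 44 members, 0 were called at an adjusted p under 0.05 (edgeR), against 0.0788% of all genes, and the smallest adjusted p was 0.429. At an unadjusted p under 0.05 there were 2 members (4.55%), Adamts4 and Adamts14, against 4.37% of all genes, and DESeq2 called 0, against 0.0914%. The interaction of sex with Winnie called 0 members (8, or 18.2%, at an unadjusted p under 0.05, and 0 in DESeq2), against 0%, 13.6% and 0.955% of all genes. The interaction with Winnie-Prolapse called 0 members (3, or 6.82%, and 0), against 0%, 4.97% and 0.0132%.

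Markers of other cell types differed between the groups as well. The summed macrophage and monocyte markers (8 of 8 detected in each group) ran from 106 to 257 CPM in C57BL/6, from 178 to 409 CPM in Winnie and from 303 to 791 CPM in Winnie-Prolapse. Of the neutrophil markers (9 of 9), Ly6g stood at 3.80 to 356 CPM in C57BL/6, 299.9 to 639 CPM in Winnie and 302 to 872 CPM in Winnie-Prolapse. Without Ly6g, a choice made after its values were seen, the neutrophil sum ran from 0.507 to 3.12 CPM, from 1.51 to 128 CPM and from 67.7 to 1303 CPM. Colonic epithelium markers summed to 9567 to 14875 CPM, 9484 to 14532 CPM and 6221 to 12542 CPM. Of the 8 genes 0 were called higher and 2 lower (Car1 and Slc26a3) in Winnie-Prolapse against C57BL/6 (1 and 3 at an adjusted p under 0.05). There 9.84% of all genes were called higher and 8.47% lower. The median log2 fold change of the 8 was 0.08. Fibroblast markers (8 of 8) summed to 742 to 1035 CPM, 460 to 1367 CPM and 576 to 1939 CPM. Smooth muscle markers (7 of 7) summed to 6924 to 12535 CPM in C57BL/6, 2032 to 7690 CPM in Winnie and 1374 to 3285 CPM in Winnie-Prolapse. Squamous epithelium markers (7 of 8 in C57BL/6, where Sprr1b was at 0, and 8 of 8 in the other groups) summed to at most 4.01 CPM in C57BL/6 and 48.5 CPM in Winnie, and to 1.94 to 2650 CPM in Winnie-Prolapse. Endothelial markers (6 of 6) summed to 49.1 to 73.5, 32.2 to 128 and 71.0 to 190 CPM, and glial and neuronal markers (6 of 6) to 35.8 to 87.2, 11.9 to 42.5 and 8.99 to 38.3 CPM. In the same comparison 7 of 8 macrophage and monocyte, 5 of 6 neutrophil, 4 of 4 squamous and 1 of 6 endothelial markers tested were called higher, and 0 lower. For smooth muscle 7 of 7 and for glia and neurons 5 of 6 were called lower, and 0 higher. Of 8 fibroblast markers 0 were called. Squamous markers and neutrophil markers other than Ly6g were low in C57BL/6, so these counts are a description. The part of these markers in the results was not tested.

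Within a group, 10 relations between a member and a marker sum or another member were computed on log2 CPM, with exact two-sided permutation tests. A further 4, with Ly6g left out of the neutrophil sum, were added after the values were seen and are given without a test. In Winnie-Prolapse, Timp1 went with Mmp3 (Pearson r = 0.94, exact p = 0.00397, adjusted over the 10 to 0.0397, and Spearman rho = 0.86, exact p = 0.0238, adjusted to 0.119, n = 7). Without the 2 libraries farthest from the median of Mmp3, r was 0.94. In Winnie the same pair had r = 0.50 and rho = 0.32 (exact p = 0.273 and 0.498, adjusted to 0.389 and 0.695), and r = 0.15 without the 2 farthest libraries. With TMM scaling r of this pair in Winnie-Prolapse was 0.91 and no longer passed (exact permutation test, adjusted p = 0.0754). Mmp12 and the macrophage sum had r = 0.87 and rho = 0.86 in Winnie-Prolapse (exact p = 0.0198 and 0.0238, adjusted to 0.0992 and 0.119), and r = 0.81 without the 2 farthest libraries. In Winnie they had r = 0.43 and rho = 0.21 (exact p = 0.329 and 0.662, adjusted to 0.411 and 0.735), and r = -0.13 without the 2 farthest. With Ly6g in the neutrophil sum, Mmp8 and Mmp9 gave r of 0.68 and 0.56 in Winnie-Prolapse and -0.15 and -0.16 in Winnie, with adjusted p from 0.198 to 0.796 (exact permutation tests). Without Ly6g, r was 0.97 for Mmp8 and 0.95 for Mmp9 in Winnie-Prolapse, and 0.91 and 0.89 in Winnie, where Mmp8 missed the filter on low counts. Spearman rho in these 4 cases was 0.82, 0.89, 0.79 and 0.68. With the 2 farthest libraries left out, r was 0.97 and 0.98 in Winnie-Prolapse and 0.83 and 0.64 in Winnie. Mmp3 and the fibroblast sum had r = 0.71 in Winnie-Prolapse and 0.82 in Winnie, and -0.29 in Winnie without the 2 farthest libraries, so that this value rested on those libraries.

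**Figure D5:**
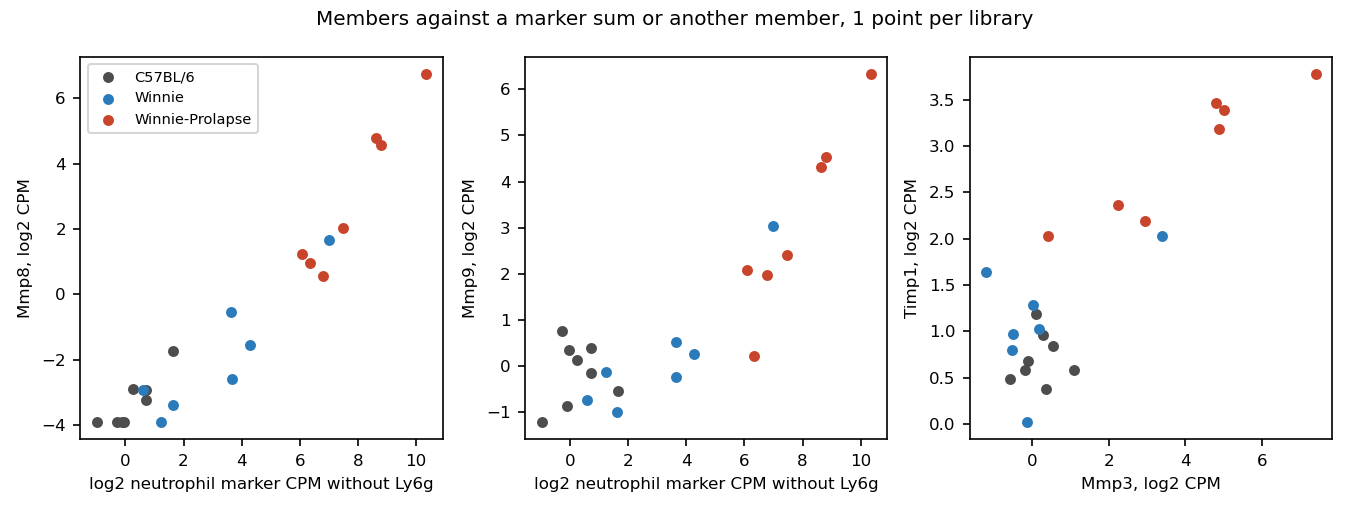
Mmp8 and Mmp9 against the sum of the neutrophil markers other than Ly6g, and Timp1 against Mmp3, as log2 CPM with 1 point per library. For Mmp8, r was 0.91 in Winnie and 0.97 in Winnie-Prolapse, and rho was 0.79 and 0.82, and no value was computed over pooled groups.

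Other genes of matrix turnover were read from fixed lists in Winnie-Prolapse against C57BL/6, at an adjusted p under 0.001, where 9.84% of all genes were higher and 8.47% lower. Of 5 plasminogen activation genes tested, 2 were higher and 0 lower. Plaur, the urokinase receptor, went from 6.85 ± 2.39 to 88.2 ± 53.8 CPM, with a log2 fold change of 3.74 ± 0.31 (edgeR adjusted p = 3.46e-07), and Plau from 7.90 ± 1.93 to 26.2 ± 19.3 CPM. Of 9 ADAM proteases 3 were higher (Adam8, Adam10 and Adam12) and 1 lower (Adam33), with a mean of 131 CPM in C57BL/6 and 195 CPM in Winnie-Prolapse for Adam10, the best known sheddase of the list. Of 8 cathepsins 1 was higher (Ctsc, which activates neutrophil proteases, from 80.0 to 264 CPM) and 0 lower.

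Of 9 other regulators 3 were higher and 1 lower. For this and the lists that follow, the shares of all genes were again 9.84% higher and 8.47% lower. Lcn2, which binds and stabilizes Mmp9, went from 1.03 ± 0.44 to 223 ± 363 CPM, with a log2 fold change of 7.96 ± 1.0 (adjusted p = 1.44e-05). Furin, which activates membrane-type precursors, went from 88.6 to 210.1 CPM, and Reck, a membrane inhibitor of metalloproteinases, from 8.90 to 4.05 CPM. Of 14 matrix substrates 1 was higher (Vcan, from 9.73 to 26.5 CPM) and 0 lower. Of 12 cytokines and transcription factors known to induce Mmp genes 5 were higher (Il1a, Il1b, Tnf, Osm and Tgfb1) and 0 lower. Il1b went from 0.887 ± 0.560 to 104 ± 93.8 CPM, with a log2 fold change of 6.93 ± 0.60 (adjusted p = 4.83e-07), whereas the AP-1 genes Fos (151 and 214 CPM) and Jun (92.3 and 65.2 CPM) were not called. The median log2 fold changes of these 6 lists, in the order given, were 1.79, 0.50, 0.40, 0.57, 0.63 and 1.67. In the other group comparisons 0 genes of the 6 lists were called at this threshold.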

How the data were processed

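Distal colon poly(A) RNA of 22 mice was sequenced from stranded, paired-end libraries. Reads were aligned to GRCm38 through RNAsik, and the authors deposited raw featureCounts read counts per gene, as whole numbers with no normalization. The submitters' processing notes also name STAR and limma. The annotation release, the strand setting and the treatment of shared reads are not given in the sources used here, so 24 members that overlap another gene are uncertain. Gene positions were taken from GENCODE M21, and promoter sequences from RefSeq on GRCm38.p6.

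From the counts, CPM (read counts relative to the library total) and log2 CPM with a prior count of 2 were computed. Members were all genes whose symbol fitted a fixed pattern of Mmp, Timp, Adamts and Adamtsl names. The tests used edgeR 4.0.16 (R 4.3.3, quasi-likelihood F test, TMM, filterByExpr) on all genes, each comparison on its own 2 groups, with Benjamini-Hochberg adjustment over all genes tested. A gene was called at an adjusted p under 0.001 and at least 1.5-fold, the limits of the study. The sex and interaction terms were fitted on all libraries and called at an adjusted p under 0.05. DESeq2 1.42.0 and limma 3.58.1 (voom) were alternatives, beside other scaling, filters, covariates, thresholds, each sex alone and leaving out each library. The test was tried on simulated data first. The members, gene lists, motifs and tests were chosen with earlier results of these data known. Named with values were the Timp genes, members called in a group comparison, in Winnie against C57BL/6 also those at an adjusted p under 0.05, and the 3 most abundant of each class. Some members outside this rule, such as Mmp24, are given with values as well.

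Libraries held 24817527 to 36344372 counts, so that 3 counts correspond to 0.0825 to 0.121 CPM. Pairs of libraries of a group differed by more than sampling noise, with a chi-square per degree of freedom of at least 28.8. Each library is one mouse. The labels give no batch.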

Additional observations from a re-analysis of the deposited data

Results flagged for a closer look

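In 132 checks of a member in a group on log2 CPM, the highest or lowest library stood apart from the rest in 16 by Dixon's criterion, which chance meets in about 1 in 20 groups. On the CPM scale there were 35, of which 12 are among the 16. Winnie-Prolapse replicate 4 accounted for 10 of the 35 and for 0 on log2 CPM, as the highest library in Mmp3 (167 CPM, others 1.27 to 32.0), Mmp8 (106 CPM, others 1.42 to 27.6), Mmp9 (80.3 CPM, others 1.09 to 23.2), Mmp13, Mmp19, Mmp25, Timp3, Adamts1, Adamts7 and Adamts9. Winnie replicate 2 accounted for 11 on CPM and 4 on log2 CPM, and C57BL/6 replicate 7 for 8 and 7. The values that follow are those found on log2 CPM, printed as CPM. C57BL/6 replicate 7 was lowest of its group in Adamts13 (0.0 CPM, others 0.289 to 0.762), Adamts15 (2.46 CPM, others 50.8 to 85.8), Mmp13 (0.833 CPM, others 2.16 to 3.84) and Timp4 (0.688 CPM, others 4.24 to 8.10). It was highest in Adamtsl3 (4.67 CPM, others 1.86 to 2.73), Mmp17 (22.5 CPM, others 7.45 to 10.9) and Mmp28 (11.2 CPM, others 2.55 to 4.89).

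Winnie replicate 2 was highest of its group in Mmp10 (22.4 CPM, others 0.591 to 2.44), Mmp3 (10.3 CPM, others 0.374 to 1.08), Mmp9 (8.07 CPM, others 0.431 to 1.35) and Mmp19 (12.1 CPM, others 4.36 to 6.74). Winnie replicate 5 was highest in Adamtsl5 (19 CPM, others 3.65 to 7.40). In C57BL/6, replicate 3 was highest in Adamts5 (20.7 CPM, others 3.51 to 7.10), replicate 2 in Mmp7 (3.04 CPM, others 0 to 0.0786) and replicate 5 in Mmp8 (0.231 CPM from 6 counts, others 0 to 0.0663). Winnie-Prolapse replicate 6, the library with the milk protein transcripts, was lowest in Adamts10 (4.35 CPM, others 7.90 to 10.6).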

How the results depend on the processing

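No paired analysis was possible because the replicate numbers only name the mice and link none across groups. In Winnie-Prolapse against C57BL/6 (20 members called), 0 members were called in males alone and 1 (2.27%) in females alone, where fewer mice were tested, against 1.76% and 1.45% of all genes. With 1 library left out 18 to 23 were called, 40.9% to 52.3% of the members tested, against 14.4% to 20.8% of all genes. None of the 29 members at an adjusted p under 0.05 and 1.5-fold in this comparison changed direction within a sex. Scaling by library size called 15 higher and 5 lower in place of 17 and 3, against 8.02% and 9.63% of all genes. In Winnie against C57BL/6 (0 called), DESeq2 called 5, an adjusted p under 0.05 gave 10, and leaving out 1 library gave 0 to 1, against 0% to 3.89% of all genes. In Winnie-Prolapse against Winnie (0 called), DESeq2 called 9, an adjusted p under 0.05 gave 10, females alone 2 (4.76%, against 0.311% of all genes) and a fit of all 3 groups 1 (2.27%, against 0.236%), with 0 whenever 1 library was left out (at most 0.00584% of all genes). The ratio of summed Mmp to summed Timp in Winnie-Prolapse was 3.44 per kilobase. With TMM scaling, r between Mmp3 and Timp1 in Winnie-Prolapse was 0.91 (exact permutation test, adjusted p = 0.0754). Without Ly6g, added after seeing the data, r with the neutrophil sum turned positive in Winnie, at 0.91 for Mmp8 and 0.89 for Mmp9, and was 0.97 and 0.95 in Winnie-Prolapse. Where no cause is given, the cause was not tested. Low members such as Mmp8, with 11 counts in C57BL/6, are limited by depth.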
